A study of Mus musculus with 16 samples.

Results

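A set of 840 H3K27ac regions was marked in Control, IFNγ 1 h and IFNγ 1 h+PJ34 macrophages and had no peak with PJ34 alone. The regions were chosen by their measured peaks. Peaks of 4 deposited lists were merged where they overlapped by at least 1 bp, which gave 55218 regions, and those with a peak from each of the other 3 lists and none from PJ34 were kept. For comparison, 21468 regions had peaks in all 4 lists, 745 were missing only from Control, 1598 only from IFNγ 1 h and 3024 only from IFNγ 1 h+PJ34. Of the 22308 regions in the other 3 lists, 3.77% were absent from PJ34.

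The cells were bone marrow-derived macrophages (BMDMs), primary macrophages differentiated in medium with LCCM, starting from the marrow of C57Bl6 mice aged 8 to 12 weeks. The conditions were no treatment (Control), 1 h of interferon gamma (IFNγ) at 100 ng/mL, PJ34, an inhibitor of PARP enzymes used at 20 µM, and both agents, with PJ34 added 1 h before IFNγ. The sources used here do not state separately how long cells were kept in PJ34 alone. H3K27ac was profiled by ChIP-seq with 2 ChIP samples and 2 input samples per condition. Each deposited list combined both replicates, so every value below is 1 value per condition, without replicate error. A missing peak is a threshold call, and less acetylation, fewer reads and a call in only 1 replicate cannot be told apart in it.

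H3K27ac, acetylation of lysine 27 on histone H3, marks active promoters and enhancers and is written by the acetyltransferases p300 and CBP. GAS elements are short palindromic sequences known from the promoters of genes induced by IFNγ, and macrophage enhancers are commonly built on sites for PU.1, C/EBP and AP-1 factors. PARP enzymes transfer ADP-ribose from NAD to proteins, and PJ34 blocks their catalytic activity. Macrophages carry many enhancers before any stimulus and gain or strengthen others after IFNγ.

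The sequences at the peak summits of the 6 highest-ranking members away from promoters are shown because these regions had strong peaks in 3 conditions and none with PJ34. Each is the 200 bp around the summit on the plus strand of mm10, read from the RefSeq GRCm38.p6 genome, and capitals mark matches to any of the 11 motifs searched.
Afdn-distal region, chr17:13659634-13659833: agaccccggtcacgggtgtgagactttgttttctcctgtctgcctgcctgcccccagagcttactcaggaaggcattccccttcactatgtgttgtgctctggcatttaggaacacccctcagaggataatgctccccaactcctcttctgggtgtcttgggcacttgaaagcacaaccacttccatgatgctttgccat
Mettl8 intron, chr2:70990001-70990200: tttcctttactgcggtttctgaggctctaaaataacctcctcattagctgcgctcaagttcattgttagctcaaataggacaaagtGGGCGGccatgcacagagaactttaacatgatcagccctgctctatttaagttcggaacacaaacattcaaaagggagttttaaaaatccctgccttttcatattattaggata
Epb41l1 intron, chr2:156441776-156441975: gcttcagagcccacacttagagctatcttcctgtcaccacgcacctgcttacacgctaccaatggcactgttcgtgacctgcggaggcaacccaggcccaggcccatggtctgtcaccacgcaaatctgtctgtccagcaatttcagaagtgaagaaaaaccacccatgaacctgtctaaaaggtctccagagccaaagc
Lalba-proximal region, chr15:98484288-98484487: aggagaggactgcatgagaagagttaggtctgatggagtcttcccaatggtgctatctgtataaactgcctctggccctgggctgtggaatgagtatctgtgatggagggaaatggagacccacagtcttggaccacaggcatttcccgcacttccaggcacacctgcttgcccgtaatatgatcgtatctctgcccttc
Tmcc3 intron, chr10:94373018-94373217: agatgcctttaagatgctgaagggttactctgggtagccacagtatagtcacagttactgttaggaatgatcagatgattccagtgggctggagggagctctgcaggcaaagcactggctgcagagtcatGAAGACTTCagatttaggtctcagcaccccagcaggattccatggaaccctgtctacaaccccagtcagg
Myo1d intron, chr11:80523414-80523613: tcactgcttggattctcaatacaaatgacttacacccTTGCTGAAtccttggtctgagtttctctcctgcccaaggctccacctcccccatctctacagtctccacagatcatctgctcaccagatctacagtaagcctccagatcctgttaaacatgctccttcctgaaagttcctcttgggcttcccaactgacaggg
Matches were found in 3 of these windows: a GC box (GGGCGG) in the Mettl8 intron, the control motif GAANNNTTC in the Tmcc3 intron and a C/EBP motif (TTGCNNAA) in the Myo1d intron. The other windows held none of the letters searched, and none of the 6 held the GAS motif.

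The members were placed by score percentile, the rank of a peak among all peaks of its own list, where 100 is the highest. A region took its highest peak in each list. The region between the genes of chromosome 17 whose nearest start site was that of Afdn, an adherens junction protein, ranked highest in its weakest list. It lay at chr17:13659062-13660158, 101 kb from that start site, and its percentile was 70.8 in Control, 81.9 in IFNγ 1 h and 94.3 in IFNγ 1 h+PJ34. Its fold enrichment over local background was 14.4, 11.1 and 36.7 in the same order, and the nearest PJ34 peak was 22.3 kb away. A second region, at chr2:70988875-70991107 in an intron of Mettl8, a methyltransferase gene, had percentiles of 69.6, 70.4 and 86.7 in Control, IFNγ 1 h and IFNγ 1 h+PJ34. The third, at chr2:156440796-156443305 in an intron of Epb41l1, which encodes a membrane skeleton protein, had percentiles of 69.3, 69.2 and 80.9. In all 3 regions the value in IFNγ 1 h+PJ34 was the highest, while Control and IFNγ 1 h lay within 12 points of each other.

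The next members were also highest in IFNγ 1 h+PJ34, while the order of Control and IFNγ 1 h varied. The region 1.67 kb from the start site of Lalba, the gene of the milk protein α-lactalbumin, had percentiles of 67.3, 67.0 and 78.2. Introns of Tmcc3 (64.2, 61.6 and 70.7), of the myosin gene Myo1d (60.2, 70.5 and 70.6) and of Neo1, the gene of the netrin receptor neogenin (68.1, 60.1 and 70.7), followed. The Neo1 region was the farthest of the 10 highest members from a PJ34 peak, at 86.3 kb. The remaining 3 lay in introns of Dnajc5, a co-chaperone gene (59.7, 76.3 and 85.1), of Btnl2, a butyrophilin-like gene of the MHC region (59.6, 66.2 and 87.2), and of March6, an endoplasmic reticulum ubiquitin ligase gene (59.0, 59.8 and 77.9). IFNγ 1 h+PJ34 was the highest list for all 10. A further isolated member lay in an intron of Fkbp5, which encodes an Hsp90-binding immunophilin, 46.6 kb from the nearest PJ34 peak, with percentiles of 54.5, 64.7 and 73.1.

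**Figure D1:**
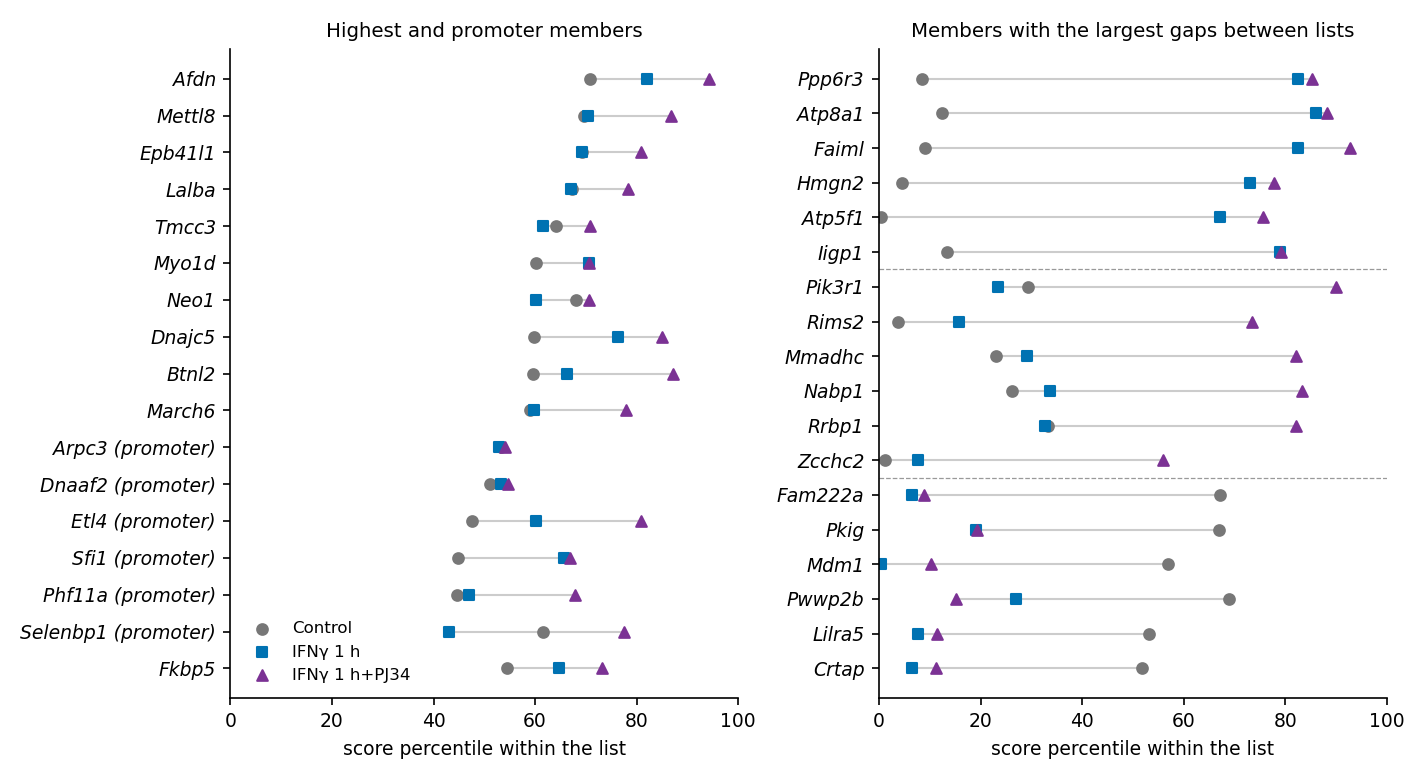
Score percentile of single regions in the 3 lists that held them (circles Control, squares IFNγ 1 h, triangles IFNγ 1 h+PJ34); labels are the host gene or, between genes, the nearest gene. Left, the 10 highest members, 6 promoter members and Fkbp5, for which the triangle is the rightmost symbol in every row. Right, from top to bottom, the 6 members with the widest gap for both IFNγ lists above Control, for IFNγ 1 h+PJ34 above both others, and for both IFNγ lists below Control.

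Such strong members were few. Over the 840 regions, the median percentile was 34.4 in Control (95% interval 31.9 to 35.8), 31.9 in IFNγ 1 h (30.2 to 33.7) and 48.2 in IFNγ 1 h+PJ34 (45.7 to 50.6). Regions in all 4 lists had medians of 74.6, 71.4 and 72.1 in these lists. The lowest of a member's 3 percentiles was above 50 in 36 members and above 75 in 0. In Control, 4 members ranked above the 75th percentile, against 17 in IFNγ 1 h and 117 in IFNγ 1 h+PJ34. The median fold enrichment was 4.29 in Control, 4.03 in IFNγ 1 h and 5.98 in IFNγ 1 h+PJ34, and the highest values were 27.6, 23.4 and 36.7.

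**Figure D2:**
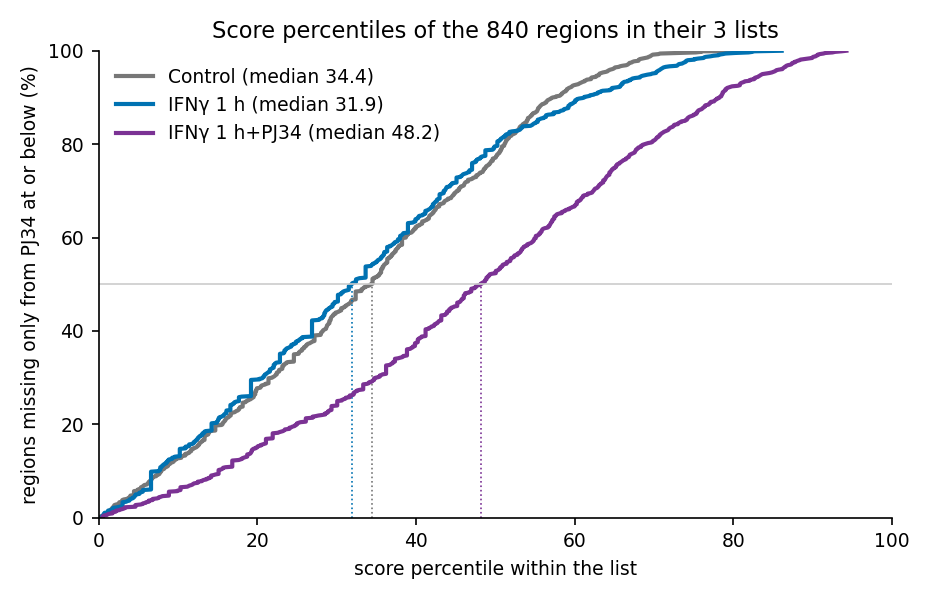
Cumulative share of the 840 regions (vertical axis, %) at or below each score percentile (horizontal axis) in Control, IFNγ 1 h and IFNγ 1 h+PJ34, with dotted lines at the medians. The IFNγ 1 h+PJ34 curve lies to the right, with a median of 48.2 against 34.4 and 31.9.

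Because presence in 3 lists chose the members, their ranks there are a description and were not tested. The percentile was highest in IFNγ 1 h+PJ34 for 489 members, or 58.2% (54.8 to 61.6%), in Control for 25.5% and in IFNγ 1 h for 16.3%. Among regions in all 4 lists, with the same 3 lists compared, IFNγ 1 h+PJ34 was highest in 28.8% and Control in 45.9%. Restricting those to the 7857 regions whose lowest percentile was at most 50 left 26.2% highest in IFNγ 1 h+PJ34. The share rose along the members' rank, from 46.8% of the 235 members with a lowest percentile up to 10 to 82.8% of the 29 members between 50 and 60 (64.2 to 94.2%). Among regions in all 4 lists it also rose between these bins, from 21.4% to 31.1%. A member ranked a median of 14.7 points higher in IFNγ 1 h+PJ34 than in Control (12.2 to 16.8) and 14.6 points higher than in IFNγ 1 h (12.9 to 15.8). The median of the difference between IFNγ 1 h and Control was -0.685 points. IFNγ 1 h+PJ34 was also the most frequent highest list among regions missing only from Control, at 47.1% of 745 (43.5 to 50.8%). Among regions missing only from IFNγ 1 h, Control was instead the highest list in 48.9% of 1598 and IFNγ 1 h+PJ34 in 29.7%. Among regions missing only from IFNγ 1 h+PJ34, PJ34 was the highest list in 52.2% of 3024.

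The members were sorted by gaps of more than 25 percentile points between lists, and 194 of them (23.1%) met none of the patterns below while 24 met more than 1. In 127 members (15.1%, 12.8 to 17.7%), both IFNγ lists lay above Control, with median percentiles of 12.6 in Control, 58.1 in IFNγ 1 h and 67.6 in IFNγ 1 h+PJ34. The same pattern was seen in 5.22% of the regions in all 4 lists whose lowest percentile was at most 50. Those regions had median percentiles of 53.5 in Control, 43.0 in IFNγ 1 h and 43.2 in IFNγ 1 h+PJ34, against 34.4, 31.9 and 48.2 in members. The 2 sets were therefore not matched by rank, and the differences in these shares were not tested. In 121 members (14.4%, 12.1 to 17.0%), IFNγ 1 h+PJ34 alone lay above both others, against 3.49% of those regions. Another 84 members (10.0%) were lower in IFNγ 1 h than in both others, against 13.1%, and 38 (4.52%) were lower in both IFNγ lists than in Control, against 7.87%. In 276 members (32.9%), the 3 percentiles lay within 25 points, close to the 32.4% of the comparison regions. In 11 members (1.31%) IFNγ 1 h lay above both others, against 2.43%. In 13 members (1.55%) IFNγ 1 h+PJ34 lay below both others, against 13.7%.

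**Figure D3:**
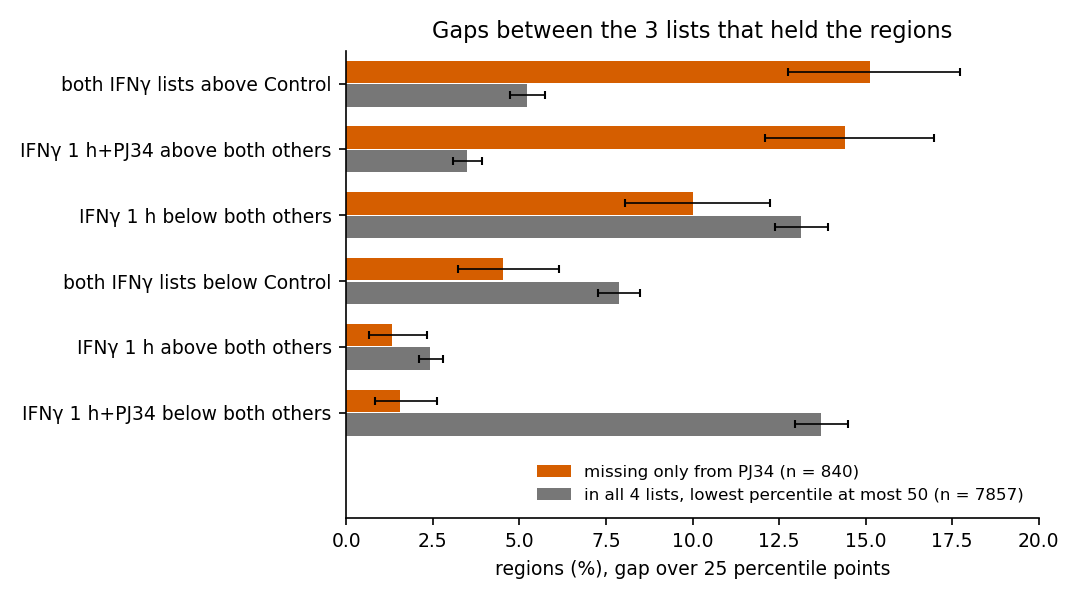
Share of regions (%, bars, with exact 95% intervals for counting error) in which the score percentiles of the 3 lists other than PJ34 differed by more than 25 points in the stated way, for the 840 members and for 7857 regions in all 4 lists whose lowest percentile was at most 50. Members exceeded the comparison regions in the first 2 patterns, at 15.1% against 5.22% and 14.4% against 3.49%. In the rest they lay below, most clearly in the last, and the intervals overlapped for IFNγ 1 h above both others. The 2 sets were not matched by rank, with a median Control percentile of 34.4 in members and 53.5 in comparison regions.

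The widest gaps of the first pattern were at regions with a weak Control peak and strong peaks after IFNγ. A region in an intron of Ppp6r3, a phosphatase regulatory subunit gene, had percentiles of 8.48 in Control, 82.4 in IFNγ 1 h and 85.4 in IFNγ 1 h+PJ34, with fold enrichments of 3.11, 19.4 and 23.1. An intron of Atp8a1, a phospholipid flippase gene, had 12.4, 86.1 and 88.1, and a region 40.7 kb from Faiml had 8.99, 82.6 and 92.8. A region 24.9 kb from Hmgn2, the gene of a nucleosome-binding protein, had 4.46, 73.0 and 77.7, and an exon of Atp5f1, an ATP synthase subunit gene, had 0.320, 67.2 and 75.7. The last of the 6 was the promoter of Iigp1, an interferon-inducible GTPase gene, with 13.3, 79.0 and 79.2 and no PJ34 peak within 96.0 kb. All 6 were near the bottom of the Control list, and none differed by more than 11 points between the lists with IFNγ.

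The second pattern was led by regions that ranked far higher where IFNγ and PJ34 were combined. A region 150 kb from the start site of Pik3r1, which encodes a phosphoinositide 3-kinase regulatory subunit, had percentiles of 29.3, 23.5 and 89.96, and fold enrichments of 3.86, 3.57 and 30.6, in Control, IFNγ 1 h and IFNγ 1 h+PJ34. An intron of Rims2, known for its role at synapses, had 3.69, 15.8 and 73.4. Regions near Mmadhc (23.0, 29.2 and 82.1) and Nabp1 (26.3, 33.7 and 83.3) and in introns of Rrbp1 (33.4, 32.7 and 82.1) and Zcchc2 (1.17, 7.77 and 55.9) followed. The Zcchc2 peak was not strong even there, with a fold enrichment of 7.75, and a PJ34 peak lay 345 bp away. Where both IFNγ lists were lower than Control, the widest gaps were in introns of Fam222a (67.2, 6.60 and 8.86) and Pkig, a protein kinase A inhibitor gene (66.9, 19.2 and 19.2). The other 4 of that kind lay near Mdm1, Pwwp2b, Lilra5 and Crtap, with Control percentiles from 51.7 to 68.9.

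Absence from PJ34 followed rank in the other lists. Of regions whose lowest percentile was at most 10, 15.8% were absent from PJ34 (14.0 to 17.8%), and 14.6% were absent between 10 and 20. The share was 9.73% between 20 and 30, 6.70% between 30 and 40, 1.23% between 50 and 60 and 0.224% between 60 and 70. Above 70, 1 region of 8615 was absent, the Afdn-distal region. Absence from the other lists fell in the same way. In all, 3.35% of regions in the other 3 lists were absent from Control, 6.93% from IFNγ 1 h and 12.3% from IFNγ 1 h+PJ34. In the lowest bin the shares were 15.6% for Control, 33.8% for IFNγ 1 h and 43.7% for IFNγ 1 h+PJ34. The intervals for PJ34 (3.52 to 4.02%) and Control (3.12 to 3.60%) overlapped, but they did not under 4 of 5 other settings, such as peaks with q under 0.01 (3.48 to 3.99% and 2.95 to 3.42%). The interval for PJ34 lay below those of both IFNγ lists.

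**Figure D4:**
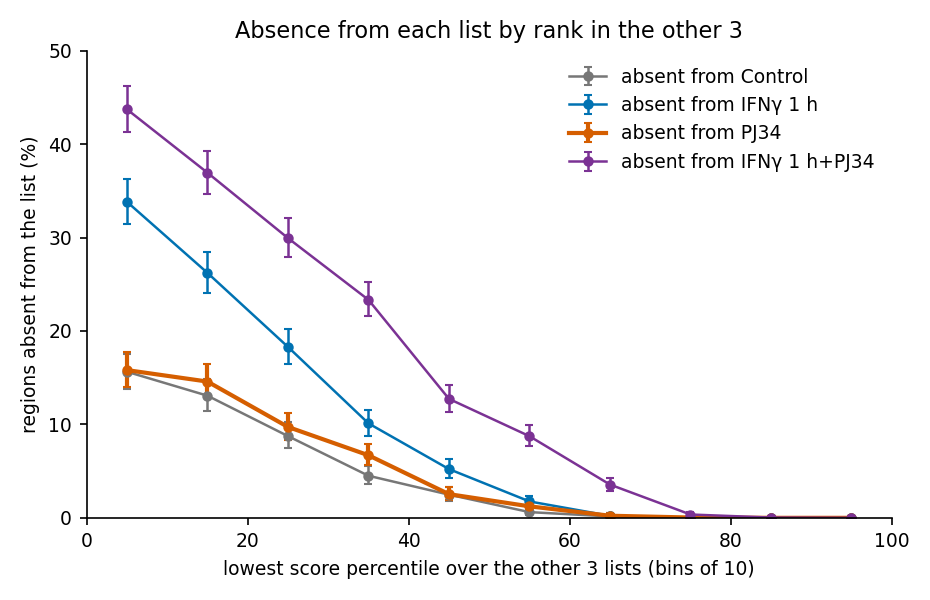
Share of regions absent from one list (vertical axis, %) by the lowest score percentile over the other 3 lists (horizontal axis, bins of 10), with exact 95% intervals for counting error. The PJ34 line falls from 15.8% in the lowest bin to 0.224% between 60 and 70 and runs close to that of Control. It lies below both IFNγ lists up to 60.

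The rule turned on 1 bp, and few regions lay at its edge. The members nearest to a PJ34 peak were a region near Arf4 at chr14:26641028-26641959, with a gap of 16 bp, one near Cobll1 with 17 bp and one near Mrtfb with 31 bp. On the other side, the smallest overlaps with PJ34 peaks among regions in all 4 lists were 44 bp near Plxnc1, 125 bp near 5430427O19Rik and 150 bp near Epas1. A PJ34 peak lay within 100 bp of 34 members (4.05%) and within 1 kb of 219 (26.1%, 23.1 to 29.2%). The median gap was 5.46 kb (4.59 to 6.12 kb), 309 members (36.8%) had no PJ34 peak within 10 kb and 81 (9.64%) none within 50 kb. The regions missing only from Control had a median gap of 3.52 kb (2.78 to 4.22 kb) to the nearest Control peak, and those missing only from IFNγ 1 h+PJ34 had 5.30 kb (4.85 to 5.78 kb) to the nearest peak of that list.

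The members were mostly distal. By the position of the summit, 57 members (6.79%, 5.18 to 8.70%) lay within 1 kb of the start site of a protein-coding gene, 29 (3.45%) in other exons, 437 (52.0%) in introns and 317 (37.7%) between genes. Regions in all 4 lists lay at promoters in 46.0%, a difference of -39.3 percentage points (-40.9 to -37.2). Regions missing only from Control did not differ detectably, with 6.85% at promoters and a difference of -0.0599 points (-2.60 to 2.43). Regions missing only from IFNγ 1 h were more often at promoters, at 13.6%, and the difference was -6.79 points (-9.12 to -4.31). The difference from regions missing only from IFNγ 1 h+PJ34, with 8.40% at promoters, was -1.61 points, and its interval (-3.45 to 0.509) included 0. The median distance to a start site was 21.2 kb (19.5 to 24.4 kb), against 3.12 kb for regions in all 4 lists.

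**Figure D5:**
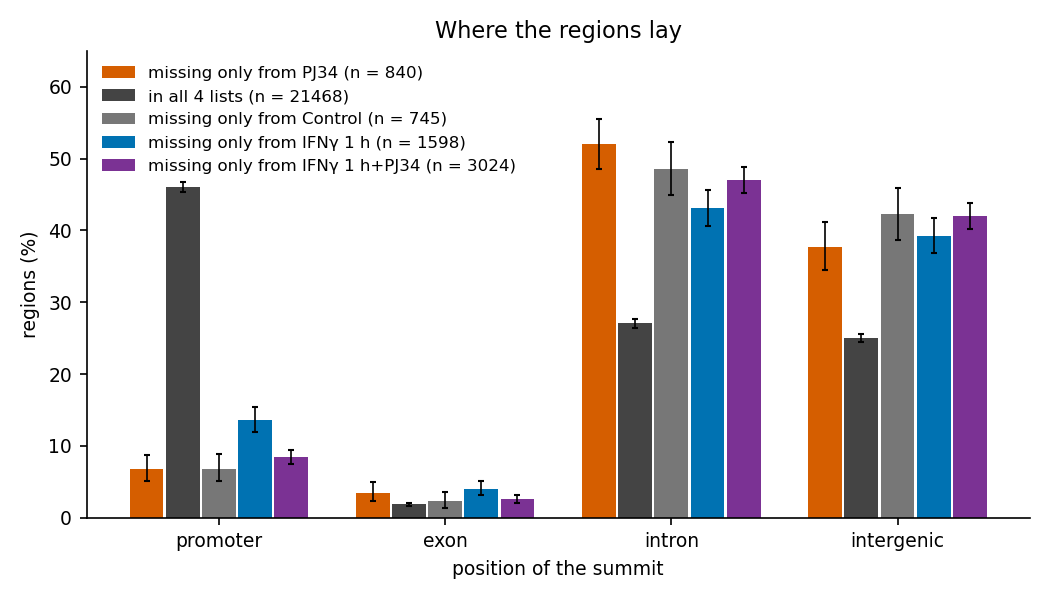
Share of regions (%, bars, with exact 95% intervals for counting error) by the position of their summit, for the 840 members and 4 comparison classes. Members lay at promoters in 6.79% and in introns in 52.0%. Regions in all 4 lists lay at promoters in 46.0%.

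The highest members within 1 kb of a start site differed in their distance to PJ34 peaks. The region 830 bp from the start site of Arpc3, a subunit gene of the actin-nucleating Arp2/3 complex, had percentiles of 53.3 in Control, 52.9 in IFNγ 1 h and 54.1 in IFNγ 1 h+PJ34, and a PJ34 peak lay 1.48 kb away. A region 985 bp from the start site of Dnaaf2, needed for assembly of axonemal dynein, had 51.1, 53.3 and 54.6, with a PJ34 peak at 205 bp. The Etl4 promoter had 47.6, 60.1 and 80.9 and no PJ34 peak within 175 kb. The Sfi1, Phf11a and Selenbp1 promoters had Control percentiles of 44.8, 44.7 and 61.5 and IFNγ 1 h+PJ34 percentiles of 67.0, 67.8 and 77.6. The fold enrichment at Sfi1 was only 1.95 to 2.46, the lowest of the 6.

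Although the members were missing from PJ34, the genes nearest to them were mostly marked there. The 840 members had 726 different nearest genes, of which 561 (77.3%) carried a PJ34 peak at a promoter, within 1 kb of the start, compared with 50.5% of all 21827 protein-coding genes. All 4 lists had a peak at the promoter for 538 of them. A region in all 4 lists lay within 5 kb of 363 members (43.2%) and within 50 kb of 719 (85.6%). Regions missing only from Control were similarly placed, with 76.0% of 600 nearest genes marked in Control.

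Most members stood alone. With gaps of up to 50 kb allowed, 180 members (21.4%) fell into 80 runs of 2 or more, 19 runs had at least 3 and 1 had 4. The run with the most members spanned 57.1 kb around the start of Fam214a and held 4, from a distal region with percentiles of 66.5, 28.6 and 54.9 to the promoter with 50.5, 4.28 and 17.9. In each of these 4, IFNγ 1 h was the lowest list. The next 2 named here are the first in genome order among the runs with 3 members. One lay inside Sp140, which encodes a bromodomain protein of immune cells. The other, at chr1:173621303-173675069, lay beside Ifi209 and Ifi208, interferon-inducible genes of the p200 family. Its percentiles were 30.8, 71.2 and 90.1 at the first region, 6.15, 46.4 and 76.3 at the second and 33.1, 71.1 and 73.5 at the Ifi208 promoter. All 3 regions were lowest in Control and highest in IFNγ 1 h+PJ34. Among nearest genes, Fam214a, Med13l, Pdgfc and Pik3r1 each had 4 members, and 18 genes had 3 or more.

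Genes were then read by list. A member lay within 50 kb of a start site for 1150 of 21827 protein-coding genes, or 5.27%, and for 7.4% of the 14803 genes that also had a region in all 4 lists within 50 kb. Distance does not show that a region acts on a gene. Of 54 IFNγ-response genes, 9 had a member (16.7%, 7.92 to 29.3%). The highest was in an intron of Ifi47, an interferon-inducible GTPase gene, with percentiles of 52.6 in Control, 73.1 in IFNγ 1 h and 67.7 in IFNγ 1 h+PJ34, and a PJ34 peak 119 bp away. A region shared by the guanylate-binding protein genes Gbp2 and Gbp3, 29.8 and 30.4 kb from them, had 56.6, 51.1 and 74.2. Its nearest start site was that of Gbp2b, at 4.08 kb. A region 10.6 kb from Rsad2, the gene of the antiviral protein viperin, had 36.4, 35.6 and 43.9 and was nearest to Cmpk2, at 2.19 kb. One 38.1 kb from the chemokine gene Ccl12 had 27.2, 48.8 and 82.7. The promoter of Cxcl10, a chemokine that attracts T cells, had 16.7, 69.8 and 57.0, and a PJ34 peak lay only 204 bp away. The same region lay 20.5 kb from Cxcl9. At the regions named here, the percentile was lowest in Control at Ifi47, Ccl12 and Cxcl10, and lowest in IFNγ 1 h at Gbp2 and Rsad2. A second Ifi47 intron region was instead lowest in IFNγ 1 h (23.2, 6.60 and 35.8). A second Rsad2 region, 2.31 kb from its start site and 236 bp from a PJ34 peak, was lowest in Control (21.4, 30.8 and 24.0).

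Regions missing only from Control, which were fewer, lay within 50 kb of 15 of the 54 IFNγ-response genes (27.8%) and of 3.83% of all protein-coding genes. Macrophage identity genes had a member in 6 of 24 cases (25%, 9.77 to 46.7%), with 5 for regions missing only from Control. They included Csf2rb, a receptor subunit for growth factors of myeloid cells, whose highest region lay 15.6 kb away (24.6, 26.9 and 41.2). For Mertk, a receptor for dying cells, an intron region lay 48.2 kb from the start site (55.6, 28.3 and 15.1) and 220 bp from a PJ34 peak. For Cd68, a lysosomal glycoprotein gene, the region lay 33.9 kb away, at the promoter of another gene (52.9, 42.1 and 14.2). Its nearest PJ34 peak was at 465 bp. The promoters of Mertk and Cd68 themselves had a PJ34 peak. The other macrophage identity genes with a member were Mitf, Fcer1g and Irf8. The Irf8 region, 25.1 kb from the start site of this interferon regulatory factor gene, had percentiles of 1.81 in Control, 66.0 in IFNγ 1 h and 44.2 in IFNγ 1 h+PJ34. Its nearest PJ34 peak was 585 bp away.

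Of 31 PARP and NAD genes, 5 had a member (16.1%, 5.45 to 33.7%) and 1 had a region missing only from Control. A region 159 bp from the start site of Bst1, a cyclic ADP-ribose-forming enzyme gene, had percentiles of 41.1, 29.7 and 36.2 and lay 49.5 kb from Cd38, which encodes a related NAD-consuming enzyme. A region 8.25 kb from Parp10 had 28.7, 43.7 and 63.4, and one 32.2 kb from Parp9 and 34.7 kb from Parp14 had 14.7, 50.5 and 5.96. A second Parp10 region, 95 bp from a PJ34 peak, had 32.4, 33.7 and 20.05. Another region near Bst1, 14.6 kb from Cd38, had 29.0, 28.6 and 63.2. Of the 6 members near these genes, IFNγ 1 h+PJ34 was the highest list in 3. Among DNA repair genes, 1 of 35 had a member, Xpc, a damage recognition factor gene (45.4, 19.2 and 2.13), and 0 had a region missing only from Control.

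A mixed list of AP-1, ATF and other transcription factor genes had a member in 10 of 45 cases (22.2%, 11.2 to 37.1%), mostly genes outside the AP-1 and ATF families. Regions missing only from Control lay near 7 of the 45. A region 39.8 kb from Elf1 had percentiles of 39.4, 43.8 and 60.1. An intron of Bcl6, which encodes a repressor, had 30.6, 31.5 and 49.2, with a PJ34 peak 140 bp away. Introns of Bach2 (49.7, 19.2 and 37.4) and Runx2 (50.4, 19.2 and 52.8) were lowest in IFNγ 1 h. The Bach2 region lay 220 bp from a PJ34 peak. Of 42 cytokine and chemokine genes, 5 had a member (11.9%) and 9 had a region missing only from Control. Among those with a member was Osm, 34.2 kb from a region in an intron of Tbc1d10a (38.3, 20.99 and 55.5). Of 36 Toll-like receptor and NF-κB genes, 5 had a region missing only from Control. A member lay near 2 (5.56%), close to the 5.27% of all protein-coding genes, and both encode receptors for nucleic acids. These were Tlr13, with a region 21.8 kb away (21.4, 60.1 and 64.4), and Tlr7, with a region 7.98 kb away (35.8, 13.3 and 30.1).

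Lysosome and phagocytosis genes had a member in 5 of 42 cases (11.9%), and 8 had a region missing only from Control. A region 8.78 kb from Cd300lf, a phosphatidylserine-binding receptor gene, had percentiles of 46.1, 65.7 and 80.6, with a PJ34 peak 395 bp away. A second one 14.0 kb from Cd300lf had 36.4, 77.5 and 92.5, and a region 9.96 kb from Lamp2 had 29.1, 55.4 and 79.0. Of 36 cholesterol and lipid genes, 5 had a member (13.9%) and 2 had a region missing only from Control. The highest members were in introns of Pparg, a lipid-sensing nuclear receptor gene (54.3, 40.9 and 82.9), and of Lpcat3, a phospholipid-remodelling enzyme gene (38.9, 28.5 and 65.2). Of 40 adhesion and cytoskeleton genes, 6 had a member (15%) and 8 had a region missing only from Control. The highest members were in introns of the integrin gene Itga6 (55.7, 50.7 and 83.7) and of Cd44, a hyaluronan receptor gene (51.7, 37.7 and 38.3). The Cd44 region lay 167 bp from a PJ34 peak. Counting every member near each list, IFNγ 1 h+PJ34 was the highest in 5 of 6 near lysosome and phagocytosis genes and 5 of 7 near adhesion and cytoskeleton genes. It was the highest in 2 of 7 near cholesterol and lipid genes, where Control was the highest in 4. Among these was a region at the promoter of Soat1, a cholesterol esterification enzyme gene (48.8, 14.2 and 25.2), 257 bp from a PJ34 peak. Shares over all 10 lists ran from 2.86% for DNA repair to 25% for macrophage identity, each with a wide interval.

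Base composition and motifs were measures the rule did not use. The median GC content of the 200 bp around the summit was 46.0% in members (45.5 to 46.5%), 53.0% in regions in all 4 lists, 44.0% in those missing only from Control and 46.5% in those missing only from IFNγ 1 h+PJ34. Among distal regions, absence from PJ34 went from 7.24% (6.48 to 8.07%) in the lowest of 5 bands of GC content to 2.28% (0.745 to 5.25%) at the highest. Over deciles of all regions it went from 6.51% to 0.382%. Absence from Control among distal regions went from 8.18% to 0.926% over the same bands.

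The GC box, a promoter element bound by Sp factors, was found in 3.81% of members (2.62 to 5.34%) and in 21.2% of regions in all 4 lists. GAS (TTCNNNGAA), whose letters read the same on both strands, was found in 7.38% of members (5.71 to 9.36%) and 5.08% of regions in all 4 lists, a ratio of 1.45 (1.14 to 1.86). Regions missing only from Control held GAS in 7.38% as well, those missing only from IFNγ 1 h in 6.13% and only from IFNγ 1 h+PJ34 in 5.82%. Distal members held it in 7.15% and distal regions in all 4 lists in 6.56%, a ratio of 1.09 whose interval (0.839 to 1.42) included 1. The control GAANNNTTC gave 3.69% and 3.98% over all regions. AP-1 (TGANTCA) was found in 5.71% and 3.88%, and among distal regions the ratio was 1.04 (0.778 to 1.40). C/EBP was found in 7.74% and 5.70%, with a distal ratio of 1.04 (0.810 to 1.34). Regions missing only from Control held AP-1 in 5.64% and C/EBP in 6.71%. PU.1 (GAGGAAGT), the lineage factor of macrophages, was found in 0.714% of members and 1.09% of regions in all 4 lists, a ratio of 0.658 (0.294 to 1.48). Over all 55218 regions GAS was found in 5.83%, AP-1 in 5.08%, C/EBP in 7.02%, PU.1 in 1.11% and the GC box in 10.5%. The interferon core (GAAANNGAA), which can overlap a GAS match, was found in 6.31% of members and 6.29% of all regions. The E-box (CACGTG) was found in 1.90% and 2.52%, the RUNX motif (TGTGGTT) in 5.36% and 4.44% and the NF-κB motif (GGGANTTTC) in 0.238% and 0.697%. Regions in all 4 lists held the RUNX motif in 3.37%, so the ratio to them was 1.59 (1.19 to 2.13). Among distal regions that ratio was 1.15 (0.852 to 1.56). The CRE motif (TGACGTCA) was in 0 of 840 members, which allows a share of up to 0.357% at a floor of 3 counts (the exact 95% upper limit was 0.438%), and in 0.103% of all regions. Among distal regions the ratio of members to regions in all 4 lists was below 1 for the GC box (0.603, 0.407 to 0.894). Its interval included 1 for every other motif with a match in members. The low GC box share was not particular to members, which held it in 3.19% when distal. Distal regions missing only from Control held it in 2.02%, only from IFNγ 1 h in 3.62% and only from IFNγ 1 h+PJ34 in 2.64%. Over all distal regions it was 3.31%, a ratio of 0.964 (0.654 to 1.42).

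Members occurred on every chromosome except Y, where 0 of 6 regions were absent from PJ34. The share ran from 1.68% on chromosome 19 (0.895 to 2.85%) to 5.04% on chromosome 3 (3.84 to 6.49%), and was 3.38% on X. The lists themselves held from 40708 peaks in IFNγ 1 h to 44090 in PJ34, so PJ34 was the longest list by peaks. Its median fold enrichment was the lowest, at 5.26 against 6.12 in Control, 5.51 in IFNγ 1 h and 6.32 in IFNγ 1 h+PJ34. PJ34 peaks fell in 35991 merged regions, against 38276 for Control, 31675 for IFNγ 1 h and 34184 for IFNγ 1 h+PJ34. As a check of the cells, all 10 macrophage markers, such as Csf1r, Adgre1 and Spi1, had promoter peaks in each list. None of 6 T cell, 5 NK cell or 6 fibroblast markers had one. Ms4a1 of 6 B cell markers was marked in every list, and Camp of 6 granulocyte markers in all but IFNγ 1 h+PJ34. Their part in the results was not tested.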

How the data were processed

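H3K27ac ChIP-seq of BMDMs was analysed from 4 deposited peak lists. Per the methods of the study, the authors aligned reads to mm10 with Bowtie, filtered them with Samtools and Picard, called peaks in each replicate against input with MACS at a p-value of 0.01, and kept peaks of both replicates. Versions are left out. Each deposited peak has a whole-number score from 10 to 1000, a fold enrichment, a −log10 p-value and a −log10 q-value, all as the authors deposited them, and a summit. Read counts are not part of the lists, so the depth behind each peak is unknown.

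Peaks were merged with a minimum overlap of 1 bp. Peaks were ranked within their list by −log10 p, with which the score rises, and the percentile is that rank. A promoter is within 1 kb of a start site of GENCODE M21 (21827 protein-coding genes, the same build). Genes were linked within 50 kb. Motifs were sought on both strands in the 200 bp around the highest-ranking summit. Shares have exact Clopper-Pearson 95% intervals, medians order-statistic intervals, differences Newcombe intervals and ratios log-ratio intervals. These cover counting error only and treat regions as independent. The intervals of the gene lists also treat genes as independent, although neighbouring genes such as Bst1 and Cd38 can share a region. With 1 list per condition, no test across samples and no p-value could be given.

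The rule for naming regions took the 10 members with the highest lowest percentile, the 6 highest at promoters, the 6 highest with no PJ34 peak within 10 kb, the 3 runs with the most members (ties taken in order of chromosome name and position) and up to 6 genes per gene list. Of the 3 patterns shown by example, 6 members each were named by the width of the gap. That choice and the threshold of 25 points were made after the values were seen. Members and gene lists were chosen with earlier results of these data known. The functions were tested on simulated data. Python 3 with numpy, pandas, scipy and pysam was used. Input samples entered only through the peak caller. The erythroid marker list is not reported here.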

Additional observations from a re-analysis of the deposited data

How the results depend on the processing

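No paired analysis was possible because the replicates of a condition had already been combined in its list, and no replicate could be left out. Of 46 alternatives, 29 left the value within its interval, or a count within 1.5 times. The 840 regions became 446 when the higher-scoring 50% of each list was kept, and between 601 and 1203 under the other settings. The share absent from PJ34, 3.77%, became 3.27% with the higher-scoring 50%, 4.17% with lists cut to equal size and 3.16% with peaks up to 1 kb apart joined. In these settings the share absent from Control was 2.51%, 3.43% and 2.47%, so the intervals for PJ34 and Control no longer overlapped, nor did they with q under 0.01 (3.73% and 3.18%). The promoter share of 6.79% became 9.19% with the higher-scoring 50%, 4.33% with joined peaks and 10.0% with a promoter window of 2.5 kb. The median GC content became 44.9% with a 500 bp window and 44.8% over whole regions. With distal regions only, the motif ratio moved to 1.04 for AP-1, 1.04 for C/EBP and 1.09 for GAS. IFNγ-response genes near members numbered 4 within 10 kb and 18 within 100 kb. Macrophage identity genes numbered 2 within 10 kb, and 3 with joined peaks. The share of members highest in IFNγ 1 h+PJ34, tried under settings chosen after seeing the data, became 65.2% with joined peaks and lay between 55.5% and 57.4% under 3 others. The causes of these moves were not tested, apart from the motif ratios, where removing promoters is the alternative itself. Without read counts, how far depth limits the calls is unknown.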
